A study of Mus musculus with 64 samples.

Results

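Liver is the main source of hepcidin, the peptide hormone that limits the entry of iron into plasma, and 10 genes around it were followed over the day in mouse liver with and without knockdown of Acsf3. The genes were taken by symbol from the UMI count table: the hepcidin genes Hamp and Hamp2, the BMP arm and iron sensor (Bmp6, Tfr2, Id1, Smad7), iron import and export (Tfrc, Slc40a1) and the ferritin subunits (Fth1, Ftl1). They are 10 of 55487 rows, and all 10 were among the 10097 genes kept by the filter on low counts. The list was chosen by symbol with the levels of these genes over both treatments and all times in view. Their differences between treatments and their changes over the day are therefore given as descriptions, and nothing is read from how many of them passed a test.

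Liver RNA came from male C57BL/6J mice with free access to food (ad libitum). All mice had been injected with AAV8, a liver-tropic viral vector, carrying a short hairpin RNA. The hairpin of the sh-Acsf3 mice targets Acsf3, a mitochondrial acyl-CoA synthetase, and the sh-Ctl mice received a control vector. Livers were collected 4 weeks after injection at 8 zeitgeber times (ZT0 to ZT21, 3 h apart, in hours after lights on), with 4 replicates in each of 16 groups, or 64 libraries in all. The labels call the knockdown liver-specific and give neither the promoter of the hairpin nor the sequence of either hairpin. They do not say whether replicates are separate mice, so p-values measure the spread between these libraries.

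When iron is plentiful, sinusoidal endothelial cells secrete BMP6, which acts on hepatocyte BMP receptors together with the coreceptor hemojuvelin, and phosphorylated SMAD proteins switch on hepcidin along with Id1 and the feedback inhibitor Smad7. Hepcidin binds the exporter ferroportin (Slc40a1) and has it degraded, so iron stays inside cells, where it is stored in ferritin. Inflammation raises hepcidin by a separate route through IL-6 and STAT3. Messenger RNAs for Tfrc and the ferritins are also controlled by iron regulatory proteins, which stabilise the former and block translation of the latter when iron is short.

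The hepcidin promoters are shown because that of Hamp carries the sites through which both routes act, and that of Hamp2 differs from it at the BMP element. By GENCODE M21 (GRCm38), Hamp spans chr7:30942368-30944032 and Hamp2 chr7:30922372-30924681, both on the minus strand, with 17686 bases between them. The RefSeq promoter table (GRCm38.p6, from 250 bases before to 50 after each start) had entries for Hamp and Hamp2, and 150 aligned bases just before each start are printed 5′ to 3′ on the minus strand. The Hamp window lies before the gene's only annotated start, and the Hamp2 window also lies in an intron of a longer Hamp2 transcript. Capitals mark the BMP-responsive element of Hamp with the aligned bases of Hamp2, and then the STAT-binding element.
Hamp, chr7:30944050-30944199: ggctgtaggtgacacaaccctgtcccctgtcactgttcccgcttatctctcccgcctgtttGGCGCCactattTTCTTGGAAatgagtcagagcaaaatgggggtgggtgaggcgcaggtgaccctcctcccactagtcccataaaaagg
Hamp2, chr7:30924199-30924348: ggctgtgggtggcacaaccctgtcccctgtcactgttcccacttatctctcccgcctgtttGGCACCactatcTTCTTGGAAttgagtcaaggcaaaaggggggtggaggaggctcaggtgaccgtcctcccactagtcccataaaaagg

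The windows were identical at 137 of 150 aligned bases (91.3%). Hamp had GGCGCC, the BMP-responsive element, with its first base 109 bases before the start (position -109), and Hamp2 had the substitution G4A there, counted from 1 at the 5′ end of the element with the base of Hamp first. TTCNNNGAA, the STAT-binding element, was present in both, at position -97 in Hamp and -94 in Hamp2. Both motifs were searched on both strands, and the 2 matches in Hamp do not overlap. Of all 32851 promoters in the table, 11.9% held GGCGCC and 8.3% held TTCNNNGAA. A match is a description of the letters in this window. The transcripts are alike too: 94.6% of 410 aligned bases of Hamp and Hamp2 were identical, and 90% of the aligned bases near their 3′ ends, where these reads fall. Reads may therefore have been split between them, and the values of Hamp2, the less counted of the pair, are uncertain for that reason.

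The sh-Ctl libraries held 1.48 to 6.06 M UMIs with a median of 3.13 M, and the sh-Acsf3 libraries 0.839 to 9.35 M with a median of 2.03 M. Acsf3 fell from 11.3 ± 2.61 to 2.56 ± 1.72 CPM (UMI counts scaled to a common library total, mean ± SD, n = 32 each), and at its time point 31 of 32 sh-Acsf3 livers held less of it than any control. In 4 sh-Ctl libraries and no sh-Acsf3 library the acute-phase gene Saa1 was above 1000 CPM. In 8 libraries (2 sh-Ctl, 6 sh-Acsf3) exocrine pancreas markers summed to over 100 CPM. Hepatocyte markers were high in every library, with summed levels of 67691 to 134884 CPM in sh-Ctl and 102458 to 143283 CPM in sh-Acsf3. Summed markers of other cells had higher medians in sh-Acsf3: 517 against 299 CPM for stellate cells and fibroblasts, 280 against 210 CPM for Kupffer cells and macrophages, 31.2 against 13.1 CPM for lymphocytes and 364 against 337 CPM for sinusoidal endothelium. Red blood cell markers were at 554 against 552 CPM. In bulk tissue, more cells of a type and more RNA per cell cannot be told apart.

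Averaged over the 8 times, Hamp, Id1 and Ftl1 were higher in sh-Acsf3 than in sh-Ctl, by 1.49-fold, 1.71-fold and 1.29-fold. These 3 of 10 genes passed the threshold (adjusted p under 0.05) of edgeR's quasi-likelihood test across all genes, all with higher levels in sh-Acsf3. Across all genes tested 14.5% passed, 8.26% higher and 6.21% lower. The remaining 7 genes did not pass, with differences between -0.22 and 0.20 on the log2 scale. Scaling by library size alone moved the split of all calls from 834 higher and 627 lower to 1125 higher and 247 lower, and under it Hamp, Id1 and Ftl1 stayed higher in sh-Acsf3 and Fth1 joined them. No member passed at any single time in the same fit, where few genes did: 0.515% at ZT0, 0.0693% at ZT3, 0.218% at ZT6, 0.357% at ZT9, 1.4% at ZT12, 0.0297% at ZT15, 0.168% at ZT18 and 0.317% at ZT21. The treatment difference varied between times for no gene (0%). In that edgeR test 306 of 10097 genes had an unadjusted p under 0.05, none of them a member.

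**Figure D1:**
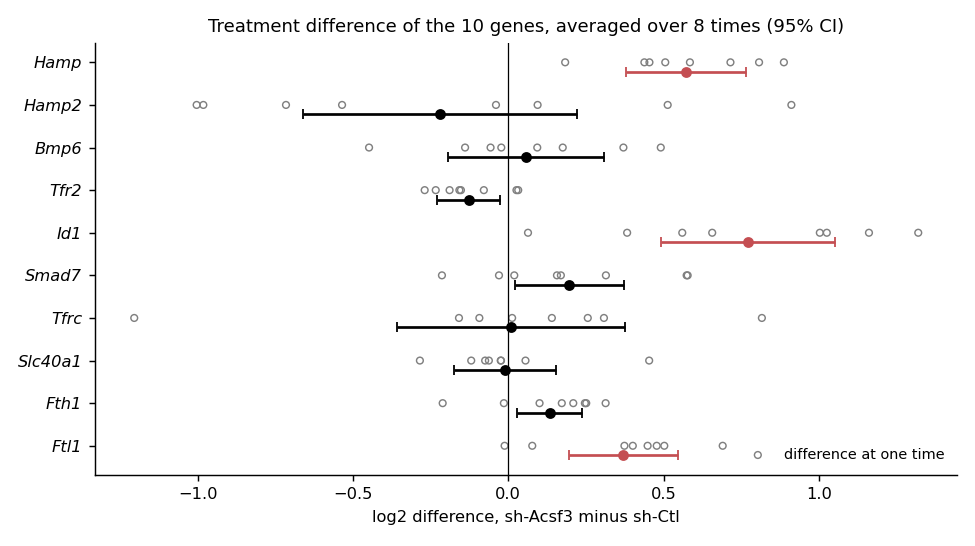
Differences between treatments for the 10 genes, in log2 units of sh-Acsf3 minus sh-Ctl. Filled points with bars are the averages over 8 times with 95% confidence intervals (red where the genome-wide threshold was passed: Hamp, Id1 and Ftl1), and open circles are the differences at single times, all 8 above 0 for Hamp and Id1.

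Hamp encodes hepcidin, the hormone itself. In sh-Ctl the 32 libraries ran from 674 to 2791 CPM with a median of 1514, and in sh-Acsf3 from 1043 to 3481 CPM with a median of 2398. The averaged difference was 0.57 ± 0.10 (log2, SE; 95% confidence interval 0.38 to 0.77). Its size varied from 0.18 at ZT9 to 0.89 at ZT12 and was above 0 at 8 of 8 times, which held for 5.74% of all genes. In 19 of 32 sh-Acsf3 libraries Hamp was above all 4 sh-Ctl libraries of its time, and in none was it below all of them. How many other genes reach such a count was not computed.

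At ZT12 the sh-Ctl libraries held Hamp at 1125, 1162, 1201 and 1563 CPM, and the sh-Acsf3 libraries at 1765, 2442, 2465 and 2677 CPM. The groups did not overlap at ZT12, nor at ZT3, where sh-Ctl ended at 1577 CPM and sh-Acsf3 began at 1633 CPM. Of all genes, 3.86% were above without overlap at ZT12 and 2.7% at ZT3. At ZT9 the sh-Ctl libraries held 900, 1558, 1754 and 2310 CPM and the sh-Acsf3 libraries 1115, 1635, 1653 and 3009 CPM. There the groups overlapped, and without replicate 4 the difference at ZT9 turned to -0.35. At ZT15, the highest time of both treatments, the sh-Ctl libraries held 1997, 2012, 2288 and 2531 CPM and the sh-Acsf3 libraries 2494, 2888, 3236 and 3481 CPM, so that 1 sh-Ctl library lay just inside the range of sh-Acsf3.

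Hamp also changed over the day, though not by every test. The edgeR test of any difference between times called it in sh-Ctl (adjusted p = 0.0155) and not in sh-Acsf3 (adjusted p = 0.158). That test called 12.6% and 13.1% of all genes. In sh-Ctl the group mean was lowest at ZT6 (955 ± 289 CPM, SD, n = 4) and highest at ZT15 (2207 ± 254 CPM). In sh-Acsf3 the lowest and highest means fell at the same times, ZT6 (1671 ± 516 CPM) and ZT15 (3025 ± 429 CPM). A 24 h cosine fitted to log2 CPM had an amplitude of 0.45 ± 0.11 (SE) with a peak at ZT17.0 ± 0.96 h in sh-Ctl, and 0.39 ± 0.08 with a peak at ZT17.7 ± 0.77 h in sh-Acsf3. In the genome-wide test of a 24 h rhythm, 2 members passed in sh-Ctl (Hamp and Slc40a1), against 19.4% of all genes, and 3 in sh-Acsf3 (Hamp, Fth1 and Ftl1), against 19.6%, with Hamp in both as were 11.7% of genes. No gene passed the edgeR test that rhythms differ between treatments. In it 431 of 10097 genes, none of them a member, had an unadjusted p under 0.05. Without replicate 1 Hamp missed the threshold in both treatments, and without replicate 2 or 3, or without the 8 libraries with pancreas RNA, in sh-Acsf3.

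Hamp2 is the other mouse hepcidin gene. Its 32 libraries ran from 21.3 to 161 CPM with a median of 44.5 in sh-Ctl, and from 7.44 to 121 CPM with a median of 43.3 in sh-Acsf3. The averaged difference was -0.22 ± 0.22 (95% confidence interval -0.66 to 0.22), and sh-Acsf3 was higher at 3 of 8 times. Libraries of the same group differed widely: the standard deviation within groups was 0.93 on the log2 scale, above 99.4% of the 1135 genes with a similar level. At ZT12, for example, the sh-Acsf3 libraries held 7.44, 74.6, 78.3 and 121 CPM, and the sh-Ctl libraries 32.7, 35.1, 39.5 and 40.7 CPM. The low values recurred at one replicate number: in sh-Acsf3, replicate 2 was the lowest of the 4 at 7 of 8 times, with a median of 17.2 CPM against 49.9, 49.4 and 67.1 CPM for replicates 1, 3 and 4. In sh-Ctl, replicate 2 was the lowest at 0 of 8 times, with a median of 65.2 CPM. Without replicate 2 of all groups the averaged difference of Hamp2 changed sign, to 0.24. What sets replicate 2 apart was not tested.

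**Figure D2:**
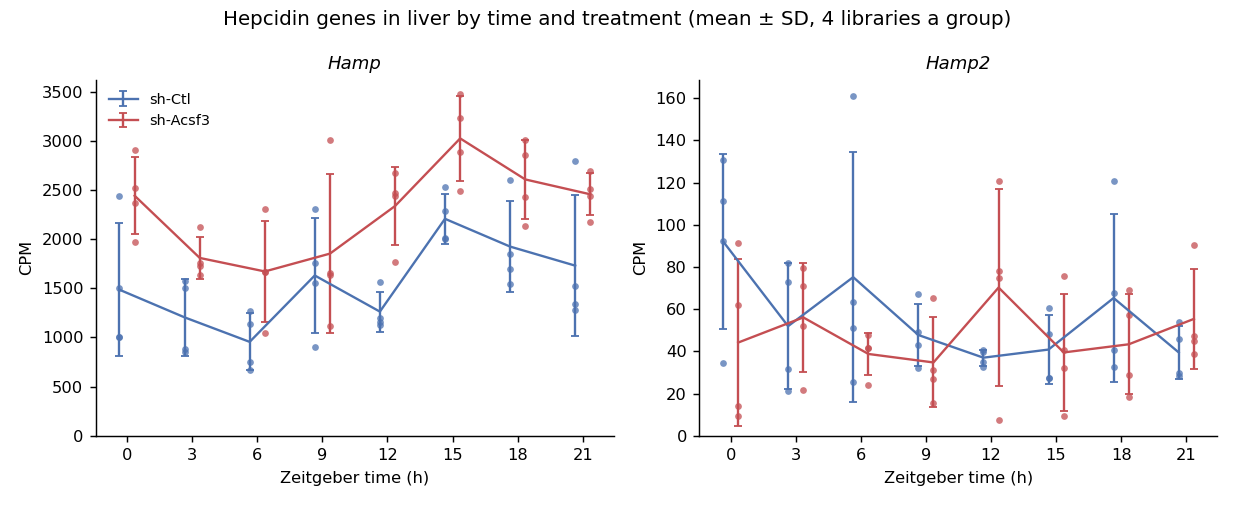
Hamp (left) and Hamp2 (right) in CPM against zeitgeber time. Points are libraries, lines join group means, bars are SD (n = 4). The sh-Acsf3 means of Hamp lie above the sh-Ctl means at 8 of 8 times and both peak at ZT15, whereas the spread of Hamp2 differs between groups, from 32.7 to 40.7 CPM in sh-Ctl and from 7.44 to 121 CPM in sh-Acsf3 at ZT12.

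Bmp6, the main iron-responsive BMP ligand of the liver, is made by sinusoidal endothelial cells, and was counted at a low level here (444 UMIs over the sh-Ctl libraries and 486 over the sh-Acsf3 libraries). It ran from 2.25 to 7.97 CPM with a median of 4.49 in sh-Ctl, and from 1.12 to 12.1 CPM with a median of 4.56 in sh-Acsf3. The averaged difference was 0.06 ± 0.13 (95% confidence interval -0.19 to 0.31), with sh-Acsf3 higher at 4 of 8 times. No difference was detectable at this depth, and the interval leaves room for changes of up to 0.31 on the log2 scale.

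Tfr2, transferrin receptor 2, senses transferrin-bound iron on hepatocytes. It ran from 122 to 256 CPM with a median of 187 in sh-Ctl, and from 128 to 211 CPM with a median of 175 in sh-Acsf3. The averaged difference was -0.13 ± 0.05 (95% confidence interval -0.23 to -0.03), which did not pass the genome-wide threshold, and sh-Acsf3 was higher at 2 of 8 times. The treatments overlapped at every time, with 8 of 32 sh-Acsf3 libraries below the whole sh-Ctl group of their time and 1 above it. The share of genes with such counts was not computed, and nothing is read from them. The highest sh-Ctl values, 250 CPM at ZT9 and 256 CPM at both ZT12 and ZT15, came from 3 of the 4 libraries with high Saa1. Without those 4 libraries the averaged difference of Tfr2 was -0.07.

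Id1, a helix-loop-helix inhibitor of transcription and a standard readout of BMP-SMAD signalling, had the largest averaged difference of the 10 genes, 0.77 ± 0.14 (95% confidence interval 0.49 to 1.05). It ran from 2.09 to 14.4 CPM with a median of 6.74 in sh-Ctl, and from 5.38 to 29.5 CPM with a median of 10.7 in sh-Acsf3. At ZT12 the sh-Ctl libraries held 3.68, 4.36, 5.02 and 7.29 CPM and the sh-Acsf3 libraries 9.78, 10.5, 14.2 and 16.6 CPM. This was the time of the largest difference (1.32) and the only time without overlap (3.86% of all genes). At ZT15 the sh-Ctl libraries held 7.15, 10.1, 10.8 and 12.5 CPM and the sh-Acsf3 libraries 5.40, 8.14, 9.25 and 17.4 CPM, with a difference of 0.06. Single times rest on few molecules, and without replicate 2 the difference at ZT15 was -0.53. In all, 18 of 32 sh-Acsf3 libraries were above the whole sh-Ctl group of their time and 2 were below it. The share of genes with such counts was not computed.

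Smad7, the inhibitory SMAD that is itself a BMP target, ran from 8.16 to 19.7 CPM with a median of 15.2 in sh-Ctl, and from 6.05 to 24.9 CPM with a median of 16.6 in sh-Acsf3. The averaged difference of 0.20 ± 0.09 (95% confidence interval 0.02 to 0.37) did not pass the threshold. Levels were higher in sh-Acsf3 at 6 of 8 times, with differences between -0.21 at ZT15 and 0.58 at ZT0. At ZT9 the groups did not overlap (3.02% of all genes), with up to 15.6 CPM in sh-Ctl and at least 16.8 CPM in sh-Acsf3. Without the 8 libraries with pancreas RNA the difference was 0.27 and passed.

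**Figure D3:**
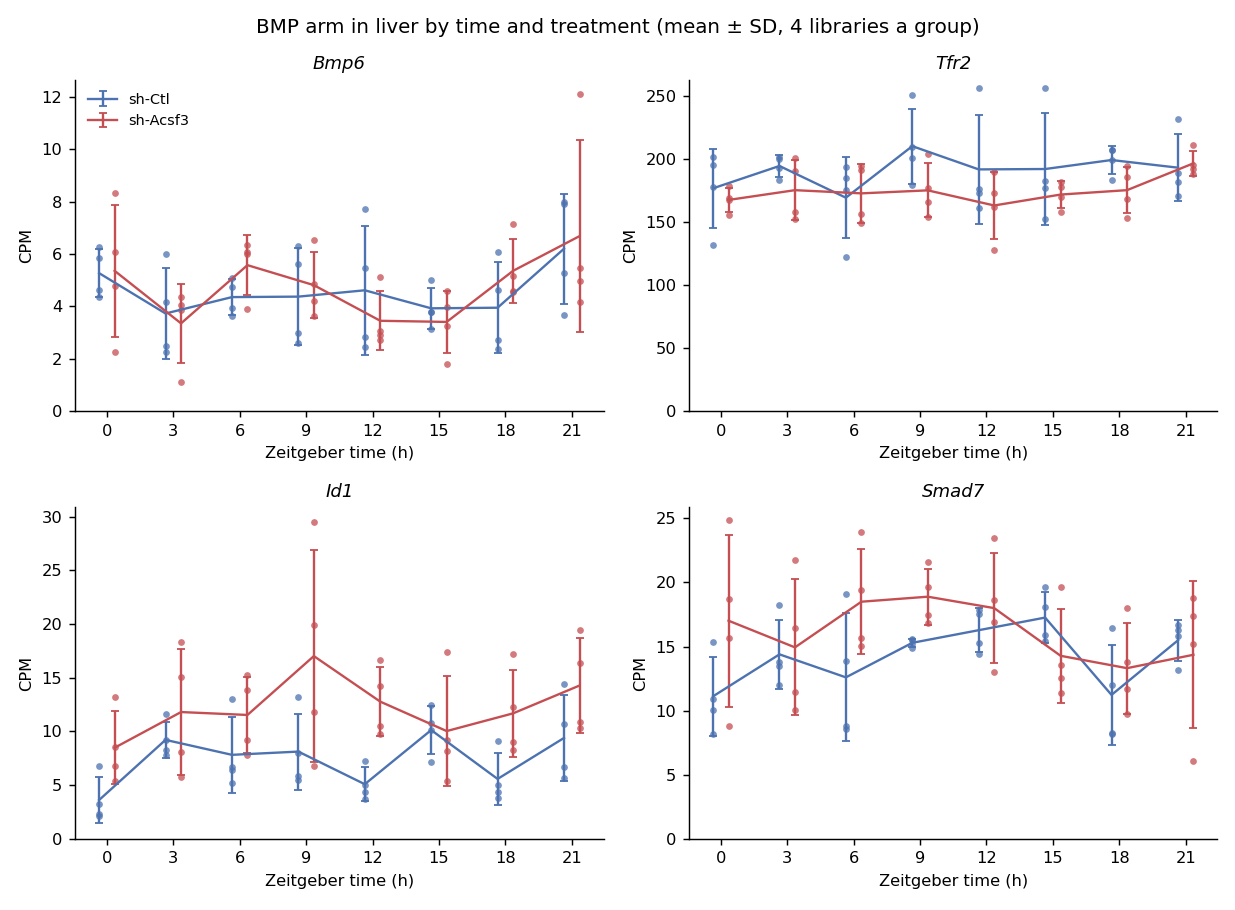
Bmp6, Tfr2, Id1 and Smad7 in CPM against zeitgeber time. Points are libraries, lines join group means, bars are SD (n = 4). Id1 means of sh-Acsf3 lie above those of sh-Ctl except at ZT15, where they are nearly equal, and Bmp6 and Tfr2 libraries overlap at every time.

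Tfrc encodes transferrin receptor 1, which takes up transferrin iron. Its averaged difference was 0.01 ± 0.18 (95% confidence interval -0.36 to 0.38), and its median was 4.72 CPM in sh-Ctl and 5.00 CPM in sh-Acsf3. In sh-Ctl the 4 libraries at ZT9 held 1.20, 1.60, 1.94 and 1.94 CPM and at ZT12 3.98, 7.09, 10.2 and 11.0 CPM. In sh-Acsf3 the 4 libraries at ZT9 held 0.702, 2.43, 3.63 and 4.55 CPM and at ZT12 6.99, 7.61, 9.13 and 11.5 CPM. All libraries at ZT9 were thus below all libraries at ZT12 within sh-Acsf3 and within sh-Ctl. The share of all genes separated in this way between these times was not computed. Group means were high at ZT15 (8.43 ± 2.64 CPM in sh-Ctl and 9.87 ± 3.98 CPM in sh-Acsf3), low at ZT21 (2.40 ± 1.02 and 3.22 ± 1.44 CPM) and higher again at ZT3 (7.42 ± 3.99 and 6.94 ± 6.03 CPM). The treatments differed most at ZT6 (-1.20 on the log2 scale), where the sh-Ctl libraries held 1.21, 3.19, 3.89 and 10.6 CPM and the sh-Acsf3 libraries 1.49, 1.89, 2.31 and 4.10 CPM. The groups overlapped there, and the sh-Acsf3 mean at ZT6 (2.45 ± 1.15 CPM) was its lowest, whereas sh-Ctl was lowest at ZT9 (1.67 ± 0.352 CPM). Tfrc did not pass the edgeR test of a 24 h rhythm in either treatment, but it passed the test of any difference between times in both. That test called 12.6% of genes in sh-Ctl and 13.1% in sh-Acsf3.

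Slc40a1 encodes ferroportin, the iron exporter that hepcidin removes, in hepatocytes and Kupffer cells. It ran from 36.6 to 149 CPM with a median of 71.2 in sh-Ctl, and from 31.7 to 107 CPM with a median of 74.3 in sh-Acsf3. The averaged difference was -0.01 ± 0.08 (95% confidence interval -0.17 to 0.15). Group means in sh-Ctl were lowest at ZT0 (54.8 ± 3.07 CPM) and highest at ZT9 (98.2 ± 36.1 CPM), and in sh-Acsf3 lowest at ZT3 (55.6 ± 18.5 CPM) and highest at ZT9 (92.5 ± 14.8 CPM). The fitted sh-Ctl rhythm had an amplitude of 0.27 ± 0.08 and a peak at ZT11.8 ± 1.14 h. It just passed the threshold and lost it when any one replicate number was left out. Slc40a1 did not pass the edgeR test of any difference between times in sh-Ctl (adjusted p = 0.111).

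Fth1 and Ftl1 encode the heavy and light subunits of ferritin, which stores iron. Fth1 ran from 2563 to 4444 CPM with a median of 3260 in sh-Ctl, and from 2692 to 5328 CPM with a median of 3591 in sh-Acsf3. Its averaged difference was 0.13 ± 0.05 (95% confidence interval 0.03 to 0.24), below the threshold in the fit with TMM scaling and past it when libraries were scaled by their size alone (0.18). The groups separated at ZT15, where sh-Ctl ended at 3165 CPM and sh-Acsf3 began at 3221 CPM, as 2% of all genes did at that time.

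Ftl1 ran from 952 to 2765 CPM with a median of 1473 in sh-Ctl, and from 1073 to 3245 CPM with a median of 1973 in sh-Acsf3. The averaged difference was 0.37 ± 0.09 (95% confidence interval 0.19 to 0.55). At ZT21 the sh-Ctl libraries held 1284, 1346, 1834 and 1859 CPM and the sh-Acsf3 libraries 1943, 2198, 2838 and 3231 CPM. The groups did not overlap at ZT21 (3.5% of all genes) or at ZT3 (2.7%), where they held up to 1544 and at least 1570 CPM. At ZT9 the groups overlapped, with a difference of -0.01. In sh-Acsf3 the fitted 24 h rhythm of Ftl1 had an amplitude of 0.30 ± 0.08 with a peak at ZT17.7 ± 1.01 h and that of Fth1 0.19 ± 0.06 with a peak at ZT20.8 ± 1.15 h. Both missed the threshold without replicate 2, without replicate 3 and without the libraries with pancreas RNA, and Fth1 also without replicate 1. Neither passed the edgeR test of any difference between times in sh-Acsf3 (adjusted p = 0.289 for Ftl1 and 0.121 for Fth1).

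Ferritin is strongly expressed in macrophages. Of 13 tested Kupffer cell and macrophage markers, 6 passed as higher in sh-Acsf3 and none as lower, with a median difference of 0.30 against -0.01 over all genes. The list did not move as a whole: Timd4 (-0.17), Cd163 (-0.21) and Folr2 (-0.06) went the other way without passing. Cd68, a lysosomal protein of macrophages, rose by 0.83 ± 0.13 (edgeR, adjusted p = 1.94e-06) and the complement gene C1qc by 0.62 ± 0.10 (edgeR, adjusted p = 3.43e-06). The summed level of all 13 markers ran from 125 to 492 CPM in sh-Ctl and from 154 to 485 CPM in sh-Acsf3. Their part in the difference of Ftl1 was not tested. Ftl1 also has copies and an overlapping gene: the retrogene Ftl1-ps1 held 423 UMIs over all libraries against 339006 for Ftl1, and Gm10252 shares 416 bases with Ftl1 on the opposite strand and held 2407 UMIs.

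**Figure D4:**
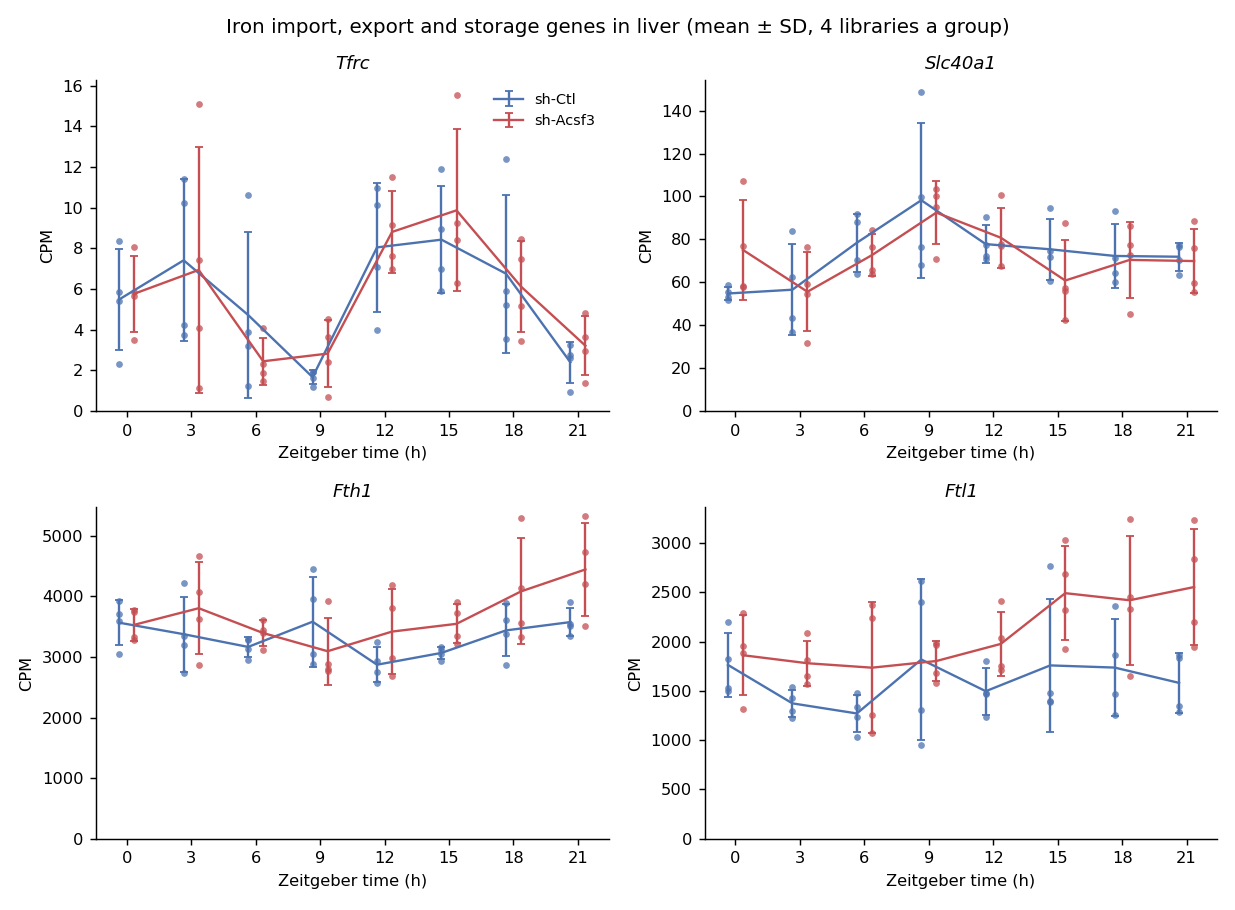
Tfrc, Slc40a1, Fth1 and Ftl1 in CPM against zeitgeber time. Points are libraries, lines join group means, bars are SD (n = 4). Tfrc is low at ZT9 and ZT21 and high at ZT12 and ZT15 in both treatments and at ZT6 lower in sh-Acsf3 (2.45 against 4.73 CPM). Slc40a1 means are highest at ZT9 in both. The Ftl1 means of sh-Acsf3 lie above those of sh-Ctl at every time but ZT9.

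The other genes of the pathway were taken from lists. Among BMP ligands, receptors and coreceptors, 3 of 13 tested genes were higher in sh-Acsf3 and none lower, with a median difference of 0.08. Gdf2, which encodes BMP9, a ligand made by stellate cells, rose from 6.36 ± 2.25 to 9.35 ± 3.14 CPM (0.54 ± 0.10, edgeR adjusted p = 6.75e-05) and was higher at 8 of 8 times. Eng, the endothelial coreceptor endoglin, rose from 35.1 ± 6.15 to 42.7 ± 8.95 CPM (0.27 ± 0.06, edgeR adjusted p = 0.00107). Bmp5 rose by 0.46 ± 0.15 (edgeR, adjusted p = 0.0278), a call that was lost when any one replicate number was left out (adjusted p up to 0.0992) and without the 4 libraries with high Saa1 (adjusted p = 0.078). The hepatocyte partners of Tfr2 did not pass with edgeR: Hfe, a class I-like protein mutated in haemochromatosis, differed by -0.13 ± 0.05 (edgeR, adjusted p = 0.0811; limma-voom, adjusted p = 0.048), and the hemojuvelin gene Hjv by -0.08 ± 0.05 (edgeR, adjusted p = 0.339). Hjv had a 24 h rhythm in both treatments, with peaks at ZT0.592 ± 0.614 h in sh-Ctl and ZT23.4 ± 0.764 h in sh-Acsf3 (edgeR, adjusted p = 3.41e-06 and 0.000769).

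Of 13 tested genes of SMAD signalling and BMP targets, 1 was higher and none lower, with a median of 0.09. It was Bambi, a decoy receptor of the BMP and TGF-beta family and a BMP target, which rose from 3.45 ± 1.22 to 5.38 ± 2.02 CPM (0.61 ± 0.13, edgeR adjusted p = 0.000504) and was higher at 8 of 8 times. The other inhibitors of DNA binding did not pass in this fit: Id4 differed by 0.59 ± 0.23 (edgeR, adjusted p = 0.0669) and Id3 by 0.20 ± 0.09 (edgeR, adjusted p = 0.159). Id4 passed under 4 other settings, among them DESeq2 (adjusted p = 0.0392). Fkbp1a, which binds and restrains a BMP type I receptor, differed by 0.14 ± 0.06 (edgeR, adjusted p = 0.0669) and passed under 5 other settings, among them library-size scaling (0.20, adjusted p = 0.00909).

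Stellate cell and fibroblast markers moved more widely: 10 of 12 were higher and none lower, with a median of 0.76. Their summed level ran from 189 to 389 CPM in sh-Ctl and from 396 to 796 CPM in sh-Acsf3, so the treatments did not overlap. Of 16 sinusoidal endothelial markers, 2 were higher (Eng and Ptprb) and none lower, with a median of 0.09. Gdf2, Bambi and Id1 are expressed in these cells as well, and the part of the markers in their differences was not tested.

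Hepcidin suppressors and other regulators had no rise and 2 falls among 11 tested genes, with a median of 0.05, and the count turned with the setting. Scaled by library size alone, 2 were higher (Furin and Spint2) and none lower, and without the 4 libraries with high Saa1 only Spint2 passed, higher in sh-Acsf3. Serpina1e, an alpha-1 antitrypsin gene, fell by 0.30 ± 0.09 (edgeR, adjusted p = 0.0195), and its call was lost under 4 other settings, among them without replicate 3 (adjusted p = 0.249). Fgl1, a liver-secreted antagonist of BMP signalling to hepcidin, fell by 0.61 ± 0.20 (edgeR, adjusted p = 0.0281). Without the 4 libraries with high Saa1 the difference of Fgl1 was -0.12 (adjusted p = 0.603), so its size depended on those libraries. The IL-6 receptor gene Il6ra differed by -0.22 ± 0.09 (edgeR, adjusted p = 0.103) and was rhythmic in both treatments, with peaks at ZT14.1 ± 0.656 h and ZT12.9 ± 0.86 h (edgeR, adjusted p = 0.000126 and 0.000885).

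Acute-phase genes are induced by IL-6, as hepcidin is, and their direction depended on the 4 sh-Ctl libraries with high Saa1. With all libraries, 10 of 21 tested genes were lower in sh-Acsf3 and none higher, with a median of -0.38. Without those 4 libraries 3 were higher and 2 lower, with a median of 0.10: Lcn2 (1.28), Saa3 (0.46) and Apcs (0.27) were higher, and Lbp (-0.37) and Itih4 (-0.17) lower. Orm2, an acid glycoprotein gene, moved from -2.52 to 0.12. The summed level of the list ran from 14703 to 61352 CPM in sh-Ctl and from 13759 to 23042 CPM in sh-Acsf3. Lbp, the lipopolysaccharide-binding protein gene, fell by 0.47 ± 0.09 (edgeR, adjusted p = 4.6e-05) and kept its call without those libraries. Without those 4 libraries the averaged difference of Hamp was 0.55, that of Id1 0.70 and that of Ftl1 0.33.

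Of 20 tested genes of iron uptake, export and carriers none passed in either direction, with a median of -0.05. The smallest p was that of Hp, haptoglobin, which scavenges free haemoglobin (-0.38 ± 0.14, edgeR, adjusted p = 0.0543). Hp passed with DESeq2 (adjusted p = 0.0435) and with no gene filter (edgeR, adjusted p = 2.94e-10). The latter setting also moved Lcn2 from an adjusted p of 0.374 to 1.07e-11 (edgeR) at a similar size (-0.78 and -0.80). Hp is an acute-phase gene too, and without the 4 libraries with high Saa1 no gene of this list passed as lower. Without the 4 libraries with high Saa1, Lcn2, which binds iron-carrying siderophores, passed and turned from -0.78 to 1.28. Of 9 iron regulatory, ferritin turnover and chaperone genes 1 was lower, Pcbp2, a cytosolic iron chaperone (-0.14 ± 0.05, edgeR, adjusted p = 0.0243), and the call was lost under 5 other settings (adjusted p up to 0.441). With library-size scaling 1 gene was higher and none lower, Fbxl5, part of the ubiquitin ligase that degrades an iron regulatory protein (0.18, edgeR, adjusted p = 0.0385). Ncoa4, which delivers ferritin for breakdown, differed by -0.28 ± 0.12 (edgeR, adjusted p = 0.128), and the iron regulatory protein gene Aco1 by -0.01 ± 0.03 (edgeR, adjusted p = 0.942). Aco1 was rhythmic in both treatments (edgeR, adjusted p = 9.43e-05 and 0.00136).

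None of 15 genes of haem synthesis and breakdown passed, with a median of -0.07. Abcb10, a mitochondrial transporter of the haem pathway, differed by -0.18 ± 0.07 (edgeR, adjusted p = 0.0704). It passed without replicate 2 (edgeR, adjusted p = 0.00523), without the libraries with high Saa1 (0.0259) and without those with pancreas RNA (0.0441). Alas1, the rate-limiting enzyme of haem synthesis, differed by -0.08 ± 0.20 and was rhythmic in both treatments (edgeR, adjusted p = 0.000371 and 0.00114). Of 21 iron-sulfur cluster genes 1 was lower, the carrier Nfu1 (-0.15 ± 0.05, edgeR, adjusted p = 0.0388), a call that was lost under 8 other settings (adjusted p up to 0.357).

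Relations between the genes were then tested within groups, after removing the mean of each treatment and time, over 14 pairs and 64 libraries. This uses the spread between replicates and not the difference between treatments. The permutations treat the groups as independent of each other. In sh-Acsf3, replicate 1 was the highest in Tfrc at 6 of 8 times and the lowest in Fth1 at 5 of 8 and in Id1 at 6 of 8. Replicate 3 was the lowest in Tfrc at 5 of 8. If libraries of the same replicate number are related across times, which the labels do not say, these p-values are too small. Of the 14 pairs, 3 passed after Benjamini-Hochberg adjustment. Libraries with more Hamp had more Id1 (Pearson r = 0.52, permutation p = 0.00029, adjusted 0.00135; Spearman rho = 0.47, permutation p = 0.00067). Without the 2 libraries farthest from the median of Hamp, r was 0.43, and r was 0.65 within sh-Ctl and 0.41 within sh-Acsf3. Libraries with more Id1 had more Smad7 (r = 0.55, permutation p = 1e-05, the smallest that these permutations can give, adjusted 0.00014; rho = 0.53, permutation p = 0.0001), with r = 0.57 without the 2 farthest libraries. Libraries with more Tfrc had less Fth1 (r = -0.49, permutation p = 0.00025, adjusted 0.00135; rho = -0.50, permutation p = 0.00018), with r = -0.44 without the 2 farthest. Tfrc and Fth1 gave r = -0.31 with library-size scaling (adjusted permutation p = 0.0984), and without replicate 1 both this pair and Hamp with Id1 missed the threshold (adjusted permutation p = 0.0619 each).

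No relation of Bmp6 with its targets passed. It gave r = -0.03 with Id1 (permutation p = 0.861) and r = -0.19 with Smad7 (permutation p = 0.231), at the counting depth given above. With Hamp it gave r = -0.25 (permutation p = 0.048, adjusted 0.0967), with r = -0.07 within sh-Ctl and -0.49 within sh-Acsf3. Its r with Smad7 was 0.27 within sh-Ctl and -0.49 within sh-Acsf3, and its r with Id1 was 0.25 and -0.24. Hamp and Hamp2 gave r = 0.03 (permutation p = 0.822). Because 4 libraries stood apart in Saa1, relations with Saa1 were taken over the other 60: Hamp gave r = -0.21 (permutation p = 0.15, adjusted 0.234) and Id1 r = -0.11 (permutation p = 0.475, adjusted 0.555). Over the same 60 libraries Hamp and Tfr2 gave r = 0.44 (permutation p = 0.00529, adjusted 0.0185), against r = 0.32 over all 64 (permutation p = 0.0289, adjusted 0.0809).

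**Figure D5:**
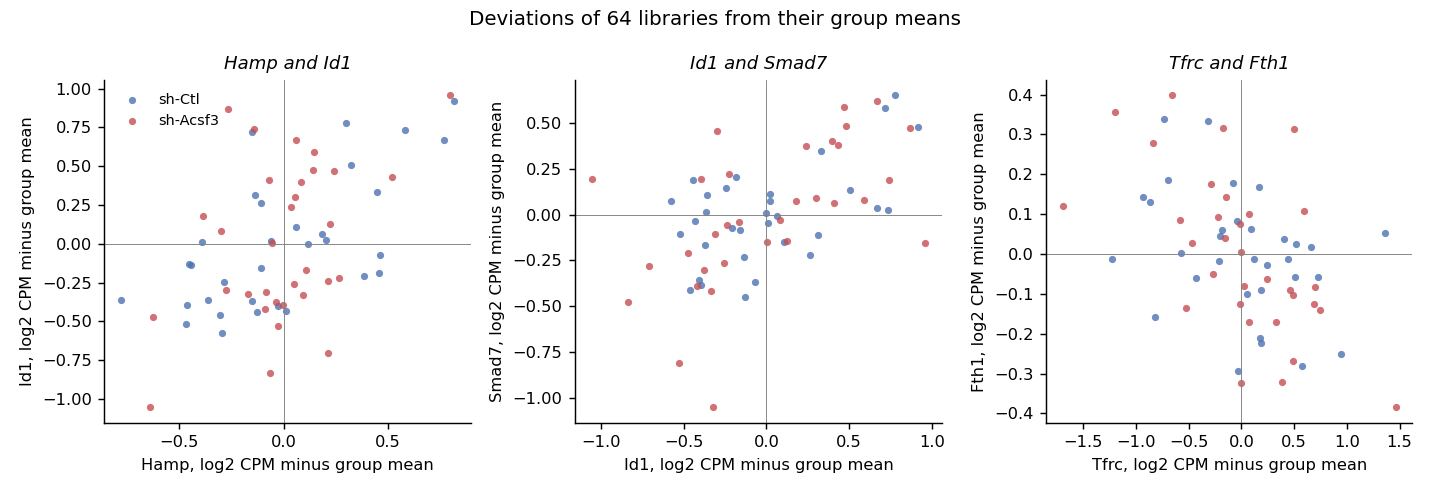
Deviations of single libraries from the mean of their group, in log2 CPM, for Hamp and Id1, Id1 and Smad7, and Tfrc and Fth1. Each point is 1 of 64 libraries, coloured by treatment. The points of the first and second panel rise together (r = 0.52 and 0.55) and those of the third fall (r = -0.49).

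The genes with the most similar profiles over the 64 libraries are given as a description, from 7766 candidates with a mean of at least 5 CPM. These correlations include the differences between groups and share each library's composition. For Hamp they were P4ha1, a collagen prolyl hydroxylase (r = 0.62), Vcam1, an adhesion molecule (0.59), and Grn, the lysosomal protein progranulin (0.58). With group means removed the same 3 gave 0.19, 0.04 and 0.18. For Id1 the nearest were Abcg1 (0.56), Cygb, a stellate cell globin (0.55), and Lgals3, a macrophage galectin (0.54), which fell to 0.16, 0.24 and 0.18 with group means removed. For Tfr2 they were the secreted hepatocyte proteins Clu (0.82), Itih1 (0.80) and Vtn (0.80), and group means made little difference to them (0.81, 0.79 and 0.79). For Tfrc they were the chaperone genes Dnaja1 (0.70) and Chordc1 (0.68) and the nucleolar gene Mybbp1a (0.68). For Slc40a1 the nearest was Nfkbia (0.62), for Smad7 the phospholipid transporter Abcb4 (0.60), and for Bmp6 no gene exceeded Fbxo3 (0.48). For Hamp2 they were the hepatocyte enzymes Aldh1l1 (0.63), Sult1a1 (0.59) and Selenbp1 (0.58), with 0.64, 0.69 and 0.56 when group means were removed. For Fth1 the nearest was the ribosomal protein gene Rplp2 (0.84), and for Ftl1 they were the overlapping gene Gm10252 (0.82), Mettl7b (0.77) and the selenoprotein gene Selenow (0.75).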

How the data were processed

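Liver RNA was profiled by BRB-seq, a 3′ barcoding method. The deposited values are raw UMI counts per gene, aligned with STAR to GRCm38 (mm10) per the submitters' processing notes. Versions, annotation and UMI merging are not given in the sources used here. Genes were kept by filterByExpr (minimum count 10, total 15), scaled by TMM and fitted in edgeR 4.0.16 (R 4.3.3) with 16 group means and 48 residual degrees of freedom, or with a 24 h cosine per treatment. Benjamini-Hochberg adjustment covered all 10097 genes, with a threshold of 0.05. CPM are scaled by TMM, and log2 CPM use a prior count of 2. Rhythm amplitudes and their SE are least-squares fits of log2 CPM. Within-group relations were tested with 100000 two-sided permutations of libraries within groups. The count model was also run on counts simulated from its own fitted dispersions with independent libraries. Such counts cannot test whether libraries of the same replicate number are related. Alternatives were limma-voom (limma 3.58.1), DESeq2 1.42.0, other scalings, filters and left-out libraries. Named genes were the 10 members, Acsf3, up to 4 genes of each list with the smallest treatment p and up to 2 with the smallest sh-Ctl rhythm p, and the 3 genes most like each member. Genes named as passing only under another setting, and the macrophage markers named for the opposite direction, were chosen after their values were seen. Members and lists were chosen with earlier results of these data known. Promoters came from RefSeq and overlapping genes from GENCODE M21 (GRCm38).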

Additional observations from a re-analysis of the deposited data

Results flagged for a closer look

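Of 160 groups of 4 libraries (10 genes, 16 groups each), 9 held a library set apart from the other 3, and chance alone sets apart about 1 in 20 groups. For Hamp this was sh-Ctl ZT21 replicate 4 at 2791 CPM, with the next library at 1519 CPM. For Hamp2 it was sh-Acsf3 ZT21 replicate 4 at 90.3 CPM, against 47.2 CPM for the next. Of the remaining 7, 4 were Bmp6 in sh-Acsf3: replicate 3 was low at ZT3 (1.12 CPM) and at ZT6 (3.89 CPM), replicate 1 was high at ZT12 (5.12 CPM) and replicate 2 at ZT21 (12.1 CPM). Fth1 was high in sh-Acsf3 ZT9 replicate 4 (3920 CPM, next 2876 CPM), the same library that held the highest Hamp and Id1 of that group. Ftl1 was high in sh-Ctl ZT15 replicate 1 (2765 CPM, next 1480 CPM). Tfr2 was high in sh-Ctl ZT12 replicate 2 (256 CPM, next 176 CPM), one of the 4 libraries with high Saa1.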

How the results depend on the processing

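Hamp, Id1 and Ftl1 kept their direction and passed the averaged test under each setting tried, including when each of the 64 libraries was left out in turn (0.53 to 0.61, 0.71 to 0.84 and 0.34 to 0.40 on the log2 scale). Fth1 passed without replicate 1, with library-size scaling, with a minimum mean of 5 CPM and in 5 of 64 single-library omissions, Tfr2 in 5 of 64, and Hamp2 with no gene filter. Over the omissions of replicates and libraries, the averaged difference ran from -0.45 to 0.24 for Hamp2, from -0.060 to 0.19 for Bmp6, from -0.10 to 0.16 for Tfrc and from -0.064 to 0.050 for Slc40a1, and genes called ran from 787 (without replicate 3) to 1612. Genes called were 971 with a minimum mean of 5 CPM. The sign also turned for Tfrc with no filter (-0.00042), limma-voom (-0.021) and the replicate block (-0.011), for Slc40a1 with library-size scaling (0.051), the 5 CPM minimum (0.0094) and without pancreas-high libraries (0.010), for Bmp6 without Saa1-high (-0.0060) or pancreas-high libraries (-0.019), for Orm2 (0.12), Lcn2 (1.28), Saa3 (0.46) and Apcs (0.27) without Saa1-high libraries, for Lcn2 with limma-voom (0.44), and for Aco1 with library-size scaling (0.045) and the 5 CPM minimum (0.011); the cause was not tested. With each replicate left out, Lcn2 ran from -1.21 to 0.99, Saa3 from -1.30 to 0.066, Apcs from -0.52 to 0.16, Alas1 from -0.22 to 0.23 and Aco1 from -0.023 to 0.0056. At single times, calls of members were 0 in the fit reported, 2 with library-size scaling, DESeq2 or a fit on 1 time only, 1 with the replicate block and 13 with no gene filter, which also called 273 genes and 1 member for a treatment effect that differed between times and 1 gene for a difference in rhythm. Ftl1 at ZT9 turned positive with library-size scaling (0.17), no filter (0.0027), the 5 CPM minimum (0.0076), limma-voom (0.10), 1 time only (0.0054) and without pancreas-high libraries (0.016), which also turned Ftl1 at ZT0 (-0.024); Id1 at ZT15 turned without Saa1-high libraries (-0.068). With each replicate left out, Ftl1 at ZT0 ran from -0.10 to 0.20 and at ZT9 from -0.16 to 0.18, Id1 at ZT15 from -0.53 to 0.33 and Hamp at ZT9 from -0.35 to 0.46. Members rhythmic in sh-Ctl numbered 2, and 1 with library-size scaling, no filter or the replicate block, and 0 to 1 with a replicate left out (genes 1160 to 1441). In sh-Acsf3 they numbered 3, 0 without pancreas-high libraries and 0 to 3 with a replicate left out (genes 1140 to 1695). They numbered 1 with the test of any difference between times (Tfrc) and 1 with cosines of 24 h and 12 h. The test of any difference called 1271 genes in sh-Ctl and 1319 in sh-Acsf3. Calls over all lists were 52, 95 with no filter, 34 with the 5 CPM minimum and 34 to 50 with a replicate left out. Pairs that passed ranged from 1 to 4 with a replicate left out. Bmp6 with Id1 gave r = 0.012 with library-size scaling and -0.11 to 0.066 with a replicate left out, and Hamp with Hamp2 -0.28 to 0.19. Without pancreas-high libraries, a setting added after seeing the data, Hamp with Hamp2 gave -0.036, Bmp6 with Id1 0.030 and Bmp6 with Smad7 0.034. Replicate numbers did not pair sh-Ctl with sh-Acsf3 libraries of the same time. Of 32 same-numbered pairs, 7 had a correlation of deviations above 0.1, with a median of 0.024, and 8 of 32 sh-Ctl libraries correlated best with their own number. Likeness between libraries of the same number at different times was not tested. Depth limits Bmp6, Tfrc and Id1 most, whose summed counts per treatment were 444 to 1169 UMIs.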
